A study of Mus musculus with 36 samples.

Results

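Gad1, Gad2, Slc1a2, Hpca, Celf4, Mobp, Gfap, Syt1, Ncan and Sez6 are genes of brain neurons and glia whose transcripts were found at low levels in the soleus, a slow hindlimb muscle of the mouse. These 10 genes, of 51912 gene IDs in each count table, were chosen by name from genes that were higher in the ∆Ig3-MuSK soleus than in the WT soleus. The difference between those groups of libraries is therefore given as a description, without a test. Bulk RNA-seq was done on soleus and tibialis anterior (TA) muscles of male C57BL/6 mice at 3 months of age. There were 9 libraries each of WT soleus, ∆Ig3-MuSK soleus, WT TA and ∆Ig3-MuSK TA. MuSK is a receptor kinase of the neuromuscular junction that also binds BMPs, and the ∆Ig3-MuSK mice carry it, in every tissue, without the Ig3 domain, an immunoglobulin-like domain needed for BMP binding. No agent was given to any group. Whole muscles were used, so each library also holds RNA of nerve, vessel, blood and connective tissue cells. In each genotype 8 label numbers occurred in both muscles, and libraries that share a number may come from the same animal.

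Each of the 10 genes is best known from the central nervous system. Neurons that use GABA make it from glutamate with the decarboxylases Gad1 and Gad2, neurons release transmitter when Syt1 on synaptic vesicles senses calcium, and astrocytes clear glutamate from the synapse with the transporter Slc1a2. Astrocytes hold the intermediate filament Gfap, oligodendrocytes build central myelin with Mobp, and Ncan (neurocan) belongs to the matrix around neurons. Skeletal muscle is reached by motor and sensory axons whose cell bodies lie elsewhere, and its nerves are wrapped by Schwann cells, which share some glial genes, Gfap among them, with the brain.

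On GRCm38, Gad1 lies at chr2:70553072-70602014, Gad2 at chr2:22622205-22693874 and Slc1a2 at chr2:102658659-102790784, all on the plus strand. Hpca lies at chr4:129111570-129122036 and Ncan at chr8:70093085-70120873, both on the minus strand, and Mobp lies at chr9:120149707-120181484 on the plus strand. Syt1 (chr10:108497650-109010982) and Gfap (chr11:102887336-102900912) are on the minus strand and Sez6 (chr11:77930800-77979048) is on the plus strand. The counts sum reads over the exons of a gene, and the libraries hold no strand information. Of the exon bases of Slc1a2, 189 overlap Gm13872 on the other strand, of those of Hpca 57 overlap Tmem54 on the other strand, and of those of Mobp 79 overlap Gm38642 on the same strand, so reads there cannot be told apart.

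Since the 10 genes moved together among the ∆Ig3-MuSK soleus libraries, and less so in the other groups (below), their start sites were searched for short motifs. RefSeq (GRCm38.p6) gave 11 windows for 8 of the genes, each from 250 bases before to 50 bases after a start site, and none for Celf4 and Sez6. The factor REST, which keeps many neuronal genes silent outside the nervous system, binds an element with the parts TTCAGCACC and GGACAG. On either strand, TTCAGCACC was in 0 of the 11 windows and in 0.371% of all 32851 windows of the table. Its shorter form CAGCACC was also in 0, against 7.14% of all windows. GGACAG was in 5 of the 11 windows (Gad2, Slc1a2, Hpca, Ncan and Syt1), against 22.2% of all windows. A joined form (the last 6 bases of TTCAGCACC, 2 bases of any kind and GGACAG) was searched after the windows had been read, and overlaps GGACAG. It was in 17 windows of the table (0.0518%), of which 1 was that of Gad2, at position 88 of the window. TATAAA was in the windows of Gad1 and Ncan (13.6% of all windows), and GGGCGG in 5 windows of Gad1, Hpca, Ncan and Syt1 (35.7% of all windows). Matches of letters do not show that a factor binds. The windows of 4 of the 5 genes with GGACAG are shown 5′ to 3′ on the strand of the gene, to let the positions be compared; capitals mark the letters of any of the motifs on either strand. They lie at chr2:22622077-22622376 (Gad2, plus strand), chr2:102706188-102706487 (Slc1a2, plus strand), chr8:70120795-70121094 (Ncan, minus strand) and chr10:109010926-109011225 (Syt1, minus strand).
Gad2: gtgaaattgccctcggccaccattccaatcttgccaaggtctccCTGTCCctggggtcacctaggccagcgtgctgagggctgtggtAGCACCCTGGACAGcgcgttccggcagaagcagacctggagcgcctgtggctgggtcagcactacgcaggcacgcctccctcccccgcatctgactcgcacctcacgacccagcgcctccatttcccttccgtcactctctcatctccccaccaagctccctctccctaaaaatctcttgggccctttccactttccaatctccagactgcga
Slc1a2: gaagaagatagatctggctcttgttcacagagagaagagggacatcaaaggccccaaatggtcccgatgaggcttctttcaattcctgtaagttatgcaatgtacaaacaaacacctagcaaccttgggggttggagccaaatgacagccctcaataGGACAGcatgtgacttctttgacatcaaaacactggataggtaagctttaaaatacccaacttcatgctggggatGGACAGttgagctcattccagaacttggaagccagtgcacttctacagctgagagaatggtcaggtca
Ncan: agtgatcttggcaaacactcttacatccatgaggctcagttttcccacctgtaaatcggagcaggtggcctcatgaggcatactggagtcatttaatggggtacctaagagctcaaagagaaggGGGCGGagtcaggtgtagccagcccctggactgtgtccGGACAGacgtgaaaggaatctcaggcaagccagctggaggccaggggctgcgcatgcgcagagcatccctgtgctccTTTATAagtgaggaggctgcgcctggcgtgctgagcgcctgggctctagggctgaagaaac
Syt1: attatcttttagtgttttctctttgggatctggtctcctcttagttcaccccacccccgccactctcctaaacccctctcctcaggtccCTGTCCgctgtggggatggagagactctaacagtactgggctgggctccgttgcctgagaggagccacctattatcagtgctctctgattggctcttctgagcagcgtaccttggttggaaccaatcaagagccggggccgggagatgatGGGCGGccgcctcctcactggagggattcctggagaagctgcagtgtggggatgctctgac

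Depth, as the total count of a library, was 43492062 to 50051435 in WT soleus, 46397769 to 60426556 in ∆Ig3-MuSK soleus, 49287472 to 75091437 in WT TA and 56584208 to 78660422 in ∆Ig3-MuSK TA. Levels are given as CPM, counts scaled to library size with edgeR's TMM factors of that muscle. Counting error alone gave a coefficient of variation between 8.97% (Slc1a2) and 22.4% (Ncan) in the ∆Ig3-MuSK soleus. The marker list of skeletal muscle fibers (Acta1, myosin heavy chains and others) summed to at least 64992 CPM in every WT library and 69641 CPM in every ∆Ig3-MuSK soleus library, as the tissue label says. Musk, the gene whose exons were deleted in part, was at 15.8 ± 1.85 CPM in WT soleus and 11.7 ± 3.49 CPM in ∆Ig3-MuSK soleus (SD, n = 9 each); its count sums all exons and does not show the deleted ones. Lung genes such as Sftpc stood out in WT soleus replicate 3, where their list summed to 26.6 CPM, against at most 0.178 CPM in the other WT soleus libraries.

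In the ∆Ig3-MuSK soleus the means of all 10 transcripts were higher than in WT soleus, with log2 fold changes from 0.49 (Sez6) to 1.11 (Gad2). Their summed level was 6.65 ± 0.885 CPM in WT soleus and 11.6 ± 2.54 CPM in ∆Ig3-MuSK soleus (SD, n = 9 each). All 10 passed an adjusted p under 0.05 and a 1.2-fold minimum in the genotype contrast that was used to choose them, beside 71 of 19439 genes (0.365%) called higher over the whole table, and nothing is read from this count. For none of the 10 did the libraries of the genotypes part completely, which held for 4 genes of the table with every ∆Ig3-MuSK library above every WT library (0.0206%). In bulk samples, more cells of a type and more RNA per cell cannot be told apart.

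**Figure D1:**
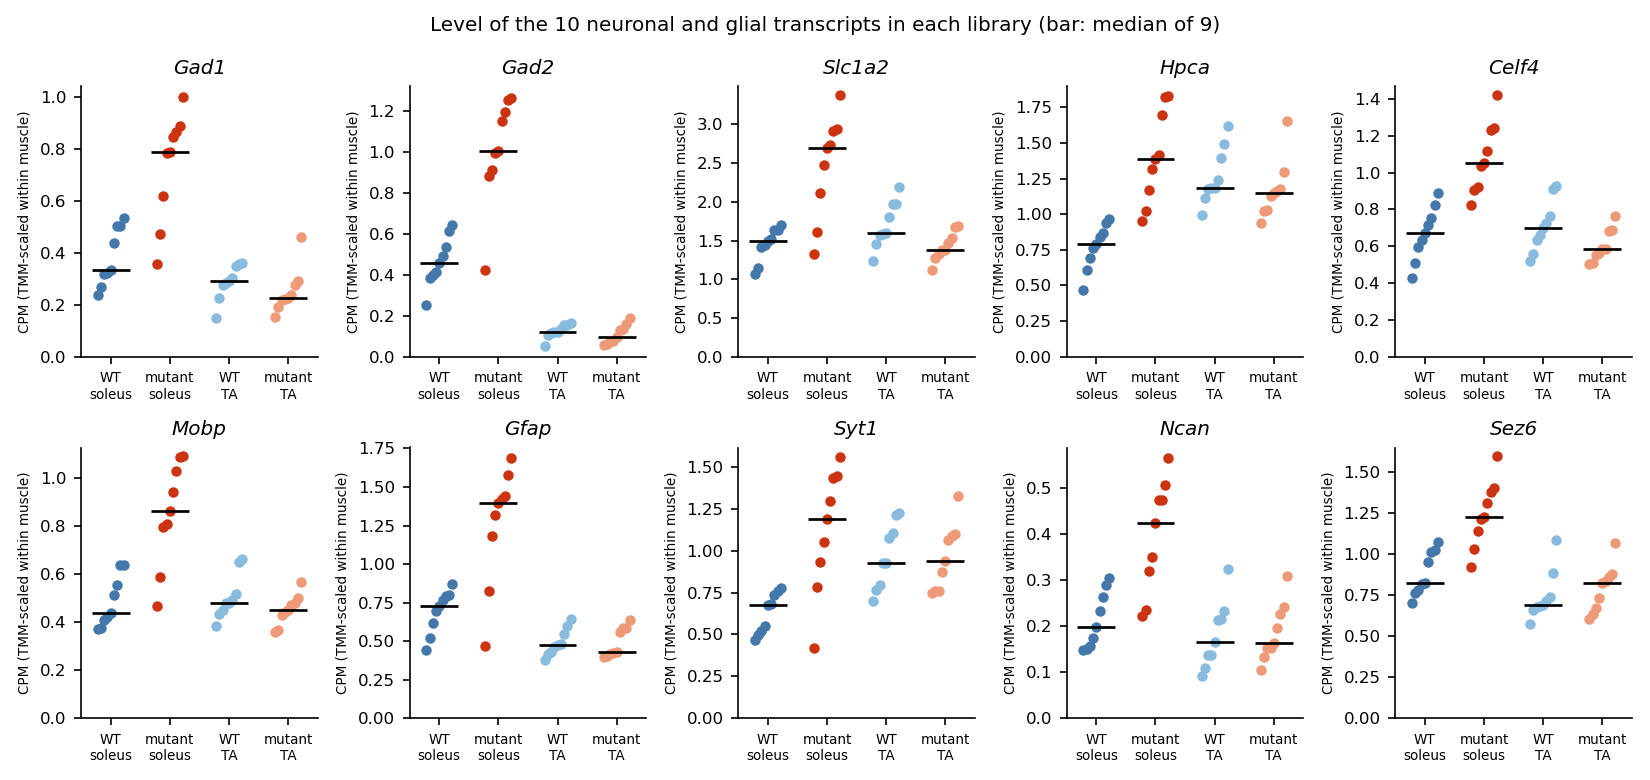
Each panel plots 1 transcript, with the 4 groups on the x axis and the TMM-scaled CPM on a linear y axis from 0; points are libraries (9 per group, spread sideways by rank) and bars are medians. In the soleus the ∆Ig3-MuSK points lie mostly above the WT points, with 1 or 2 of 9 at or below the highest WT point for each gene, while in the TA the groups overlap.

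The GABA-synthesizing enzymes had the largest fold changes, though that of Gad1 was close to that of Ncan (log2 fold change 0.89, SE 0.21). Gad2 lay between 0.254 and 0.645 CPM in WT soleus (median 0.457) and between 0.422 and 1.26 CPM in ∆Ig3-MuSK soleus (median 1.01). Only ∆Ig3-MuSK replicate 9 was inside the WT range of Gad2. The log2 fold change of Gad2 was 1.11 (SE 0.19). Gad1, which makes GABA throughout the cell body and axon, was at 0.239 to 0.532 CPM in WT (median 0.333) and 0.355 to 0.999 CPM in ∆Ig3-MuSK soleus (median 0.789). For Gad1, 7 of 9 ∆Ig3-MuSK libraries exceeded the highest WT library, and the log2 fold change was 0.93 (SE 0.20).

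Astrocyte genes had differences of similar size. Slc1a2, the most counted of the 10, had 50 to 91 reads per WT soleus library (1.08 to 1.71 CPM, median 1.49) and 60 to 186 reads per ∆Ig3-MuSK soleus library (1.33 to 3.38 CPM, median 2.70). Its log2 fold change was 0.77 (SE 0.15), with 7 of 9 ∆Ig3-MuSK libraries above the highest WT library. Gfap was at 0.444 to 0.870 CPM in WT soleus (median 0.731) and 0.467 to 1.69 CPM in ∆Ig3-MuSK soleus (median 1.4). Its lowest ∆Ig3-MuSK value was again that of replicate 9, and the log2 fold change was 0.86 (SE 0.19). Ncan, a proteoglycan that both neurons and astrocytes secrete, was the least counted in the soleus, with 7 to 17 reads per WT library and 10 to 31 per ∆Ig3-MuSK library. In CPM it lay between 0.149 and 0.305 (median 0.199) in WT and between 0.222 and 0.564 (median 0.422) in ∆Ig3-MuSK, with a log2 fold change of 0.89 (SE 0.21).

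Oligodendrocytes were represented by Mobp, a protein of compact central myelin. Mobp was at 0.370 to 0.638 CPM in WT soleus (median 0.437) and 0.467 to 1.09 CPM in ∆Ig3-MuSK soleus (median 0.864). The log2 fold change was 0.81 (SE 0.17), and 7 of 9 ∆Ig3-MuSK libraries were above the WT range.

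The other 4 genes are neuronal. Syt1, the calcium sensor of transmitter release, was at 0.468 to 0.776 CPM in WT soleus (median 0.677) and 0.422 to 1.56 CPM in ∆Ig3-MuSK soleus (median 1.19). For Syt1, 8 ∆Ig3-MuSK libraries were above all WT libraries and the ninth, replicate 9, was below all of them; the log2 fold change was 0.84 (SE 0.19). Hpca (hippocalcin), a neuronal calcium-binding protein, was at 0.465 to 0.968 CPM in WT (median 0.787) and 0.955 to 1.83 CPM in ∆Ig3-MuSK soleus (median 1.39), with a log2 fold change of 0.86 (SE 0.15). Celf4 (chr18:25477632-25754157, minus strand), an RNA-binding protein of neurons, went from 0.430 to 0.887 CPM in WT (median 0.675) to 0.822 to 1.42 CPM in ∆Ig3-MuSK soleus (median 1.05), with a log2 fold change of 0.69 (SE 0.14). For Hpca and Celf4 the groups overlapped by a single ∆Ig3-MuSK library. Sez6, a membrane protein that shapes dendrites and synapses, had the smallest difference. It was at 0.702 to 1.08 CPM in WT (median 0.825) and 0.922 to 1.6 CPM in ∆Ig3-MuSK soleus (median 1.23), with a log2 fold change of 0.49 (SE 0.12). Among genes not in the group, Icam5 (log2 fold change 0.59) and Cacna1e (0.61), both known from neurons, fell just outside the limit for a call, and Aox1 (0.32) and Ctxn3 (0.56) just inside it.

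The calls, unlike the fold changes, rested on the full set of libraries. With 1 library left out, the number of the 10 genes called ranged from 2 to 10. It was 2 without WT soleus replicate 4, 5 or 8 or ∆Ig3-MuSK replicate 1, 4 or 5, 3 without WT replicate 3 or 6, 4 without ∆Ig3-MuSK replicate 2 or 3, and 5 without WT replicate 9. Without the other 7 libraries it was 8 to 10. The number of all genes called higher moved along. It was between 14 and 25 for the libraries that left 2 of the genes called, and between 75 and 233 for those that left 10. Over the same 18 refits the log2 fold change of Gad2 stayed between 1.03 and 1.2, that of Gfap between 0.80 and 0.97 and that of Sez6 between 0.44 and 0.54. Only Gad2 and Hpca were called in all 18 refits. This contrast had been used to choose the genes, so nothing is read from these calls.

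The libraries of the soleus can be described one at a time. In 6 of the ∆Ig3-MuSK soleus libraries (replicates 1, 2, 3, 4, 5 and 8) each of the 10 genes exceeded its highest WT value. In replicate 6 this held for 9 of the genes, in replicate 7 for 4 and in replicate 9 for 1. Since the genes were chosen for higher levels in these libraries than in WT, nothing is read from these counts. The gene above the WT range in replicate 9 was Sez6, at 1.38 CPM, which only replicates 1 and 2 of ∆Ig3-MuSK soleus exceeded. The summed level of the 10 genes was 14.1, 13.9, 13.3, 13.1, 12.4 and 11.5 CPM in replicates 2, 1, 3, 5, 4 and 6, 10.8 CPM in replicate 8, 8.26 CPM in replicate 7 and 6.84 CPM in replicate 9. Replicate 9 was thus inside the WT range of 5.16 to 7.89 CPM (median 6.49). Within WT soleus, replicates 7 and 6 had the highest sums (7.89 and 7.70 CPM), each with 9 of the 10 genes above the group median, and replicate 8 the lowest, with 8 genes below it.

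**Figure D2:**
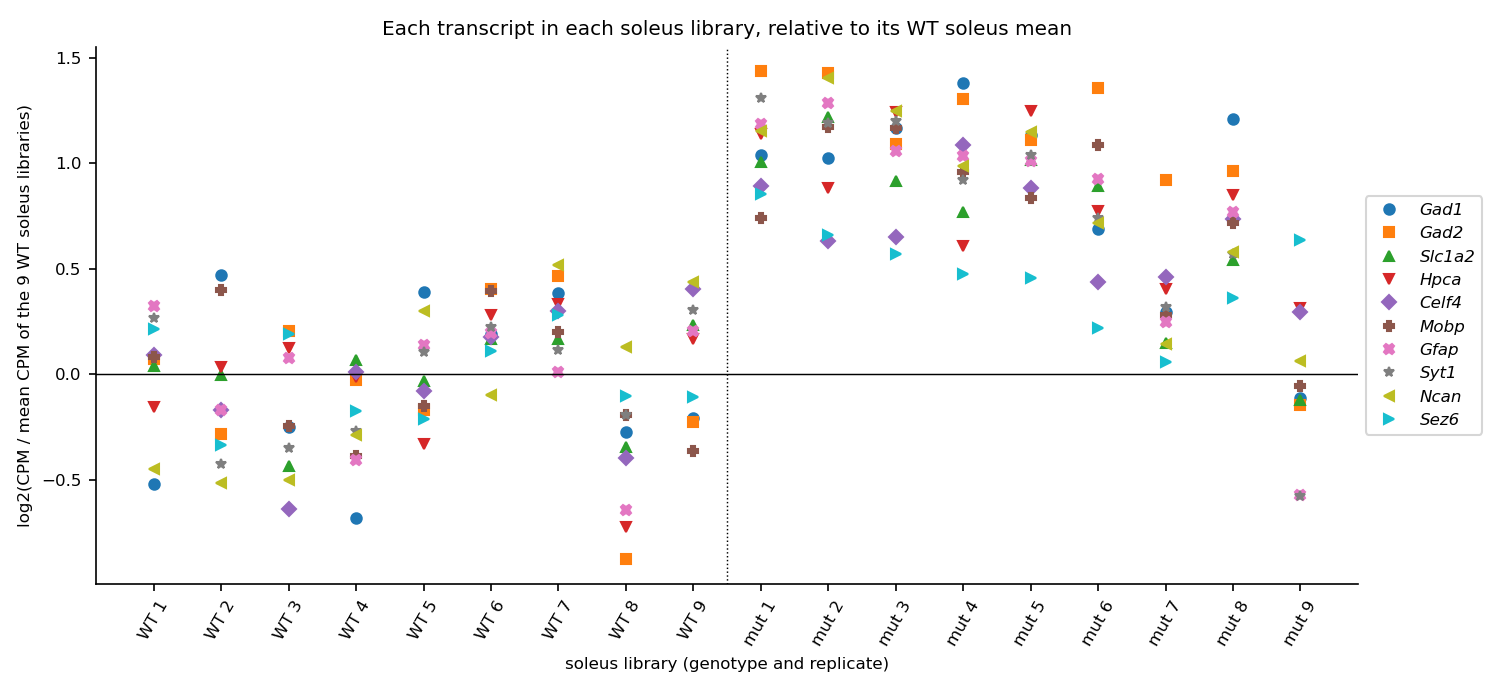
The x axis lists the 18 soleus libraries (WT and mutant, by replicate number) and the y axis gives log2 of each transcript's CPM over its mean in the 9 WT libraries; each marker is 1 of the 10 transcripts. In mutant replicates 1 to 8 all 10 markers lie above 0, while in mutant replicate 9 they lie on both sides of 0.

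Other measures moved with the same libraries. The 4 deepest ∆Ig3-MuSK soleus libraries (replicates 2, 1, 3 and 4, with 53107113 to 60426556 counted reads) had ranks 1, 2, 3 and 5 by the sum, and replicate 9, with 46397769 reads, was the shallowest and the lowest. Replicate 5, at rank 4 by the sum, had 46936855 reads. CPM are scaled for depth, and the part of depth in the result was not tested. The red blood cell list (hemoglobins and Alas2) summed to 2426 CPM in ∆Ig3-MuSK replicate 9 and to 618 to 1329 CPM in the other 8, and its part in the low values of that library was not tested.

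Within a group, the pattern over libraries was compared between genes with Pearson's r of log2 CPM, as a description over 9 libraries that share a muscle and a genotype. Among the 45 pairs of the 10 genes, r had a median of 0.78 in ∆Ig3-MuSK soleus (range 0.02 to 0.98), and all 45 pairs were above 0. The median over all pairs of genes tested in those libraries was -0.002, and 1.5% of all pairs reached the median of the 10 genes. In WT soleus the median was 0.34 (41 of 45 pairs above 0), a value reached by 22.1% of all gene pairs. It was 0.21 in WT TA (27 of 45 above 0), reached by 36.5% of all pairs, and 0.34 in ∆Ig3-MuSK TA (41 of 45 above 0), reached by 21.8%. In ∆Ig3-MuSK soleus, Gfap followed the others most closely (median r of 0.90 with the other 9), before Slc1a2 (0.86), Syt1 (0.86), Mobp (0.83), Ncan (0.82) and Gad1 (0.80). Sez6 followed them least, with a median r of 0.29. Without the library of the highest sum in each group, the median r was 0.81 in ∆Ig3-MuSK soleus and 0.26 in WT soleus. It was 0.01 in WT TA and 0.29 in ∆Ig3-MuSK TA. In ∆Ig3-MuSK soleus, leaving out the highest library kept those with the lowest sums, replicates 9 (6.84 CPM) and 7 (8.26 CPM). The part of these low libraries in the median r was not tested. By Spearman's rho in place of r, the median in ∆Ig3-MuSK soleus was 0.58.

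**Figure D3:**
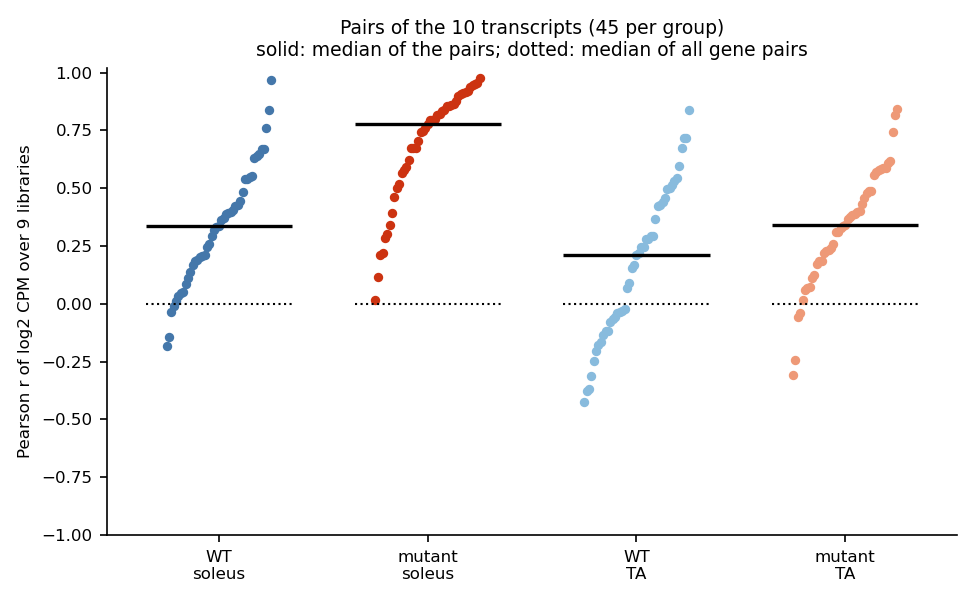
The 4 groups are on the x axis and Pearson's r of log2 CPM over the 9 libraries of a group on the y axis; each point is 1 of the 45 pairs of transcripts, the solid bar their median and the dotted bar the median over all gene pairs tested. Points of the mutant soleus are all above 0 with a median of 0.78, and those of the other groups spread on both sides of 0.

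The spread of each gene among libraries can be set beside counting error. In ∆Ig3-MuSK soleus, Slc1a2 varied by 26.9% (coefficient of variation of CPM), against 8.97% from counting alone, Syt1 by 32.6% against 13.3% and Gfap by 30.7% against 12.6%. In WT soleus the observed values were 14.9% against 12% for Slc1a2, 19.2% against 18.3% for Syt1 and 20.1% against 17.4% for Gfap. Not all of the genes had a larger spread in ∆Ig3-MuSK soleus. Celf4 varied by 17.6% there (13.6% from counting) and by 21.9% in WT soleus (17.7% from counting), and the observed values of Gad1 (28.6% and 28.9%) and Gad2 (26.0% and 26.2%) were alike in ∆Ig3-MuSK and WT soleus.

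The genes kept similar proportions to each other in both genotypes of the soleus. All 10 had been chosen as higher in ∆Ig3-MuSK soleus, so nothing is read from this likeness. Per kilobase of exon, Hpca made up a median of 25.5% of the summed CPM per kb of the 10 genes in WT soleus and 25.7% in ∆Ig3-MuSK soleus, Gfap 15% and 15.7%, Slc1a2 10.6% and 9.57%, and Mobp 6.32% and 6.51%. The median share of Gad2 was 7.43% and 9.39%, and that of Sez6 14.1% and 10.9%. For each of the 10 genes the range of the shares over ∆Ig3-MuSK libraries overlapped the range over WT libraries. In WT TA the median share of Hpca was 35.5%, and its lowest share there (34.5%) was above its highest in any soleus library (28.9%). The median share of Gad2 was 1.87%, and its highest in WT TA (2.63%) was below its lowest in any soleus library (5.41%). The difference of the means, ∆Ig3-MuSK minus WT soleus, was made up of Hpca (26.6% per kb), Gfap (16.4%), Gad2 (11.3%), Slc1a2 (9.49%), Sez6 (7.68%), Syt1 (7.28%), Mobp (6.60%), Celf4 (5.92%), Gad1 (5.63%) and Ncan (3.12%).

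In order of the median CPM per kb, WT soleus ran from Hpca (0.270) over Gfap (0.173), Sez6 (0.143), Slc1a2 (0.114), Syt1 (0.0812), Celf4 (0.0786), Gad2 (0.0778), Mobp (0.0638) and Gad1 (0.0435) to Ncan (0.0276). The ranges of all neighbours in this order overlapped. In ∆Ig3-MuSK soleus the first 4 genes were in the same order, from 0.475 for Hpca to 0.205 for Slc1a2, Gad2 (0.171) came next, and Ncan (0.0587) was again the last. In WT TA, Hpca (0.406) was set apart from the next gene, Slc1a2 (0.121), with no overlap of their ranges, and Gad2 (0.0204) was the last.

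The TA served as a test that the choice of the genes had not used. In the TA, no rise of the 10 transcripts in ∆Ig3-MuSK was detected. Their summed level was 7.00 ± 0.799 CPM in WT TA and 6.45 ± 0.784 CPM in ∆Ig3-MuSK TA (SD, n = 9 each), with ranges of 5.87 to 8.42 and 5.61 to 7.89 CPM. Gad2 had only 3 to 12 reads per TA library and did not pass the filter on low counts. Of the 9 genes tested, 0 were called higher and 0 lower by edgeR's quasi-likelihood test with Benjamini-Hochberg adjustment over 20075 genes, of which 3 were called higher (0.0149%) and 0 lower (0%). DESeq2 and limma-voom also called 0 of the 9, where DESeq2 called 0.817% of all genes higher and 0.304% lower, and limma-voom 0.598% and 0.149%. At an unadjusted p under 0.05, 1 of the 9 was lower in ∆Ig3-MuSK and 0 were higher, where 12% of all genes tested were lower and 12.2% higher. That gene was Slc1a2, at 1.23 to 2.20 CPM in WT TA (median 1.59) and 1.12 to 1.69 CPM in ∆Ig3-MuSK TA (median 1.38), with a log2 fold change of -0.26 (SE 0.11, edgeR adjusted p = 0.171). Of all genes, 0.00996% had every ∆Ig3-MuSK TA library above every WT TA library, and none of the 10 did.

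The remaining TA values were smaller. Celf4 was at 0.518 to 0.925 CPM in WT TA and 0.504 to 0.762 CPM in ∆Ig3-MuSK TA (log2 fold change -0.24, SE 0.13, edgeR adjusted p = 0.251). Gad1 was at 0.150 to 0.362 CPM in WT TA and 0.153 to 0.459 CPM in ∆Ig3-MuSK TA, a log2 fold change of -0.20 (SE 0.20). For Mobp it was -0.16 (SE 0.13), for Hpca -0.11 (SE 0.11) and for Sez6 0.09 (SE 0.13), and the libraries of both genotypes overlapped. The other 3 genes had estimates close to 0, Gfap at -0.01 (SE 0.14), Syt1 at -0.02 (SE 0.14) and Ncan at 0.02 (SE 0.25), and their sign changed with the processing. Whether the genotype difference itself differed between the muscles was not tested, because the soleus values had been used to choose the genes.

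Levels in the muscles were set side by side on factors computed over all 36 libraries. The ratio of the means, WT soleus over WT TA, was 3.41 for Gad2, 1.3 for Gfap, 1.22 for Gad1, 1.09 for Sez6 and 1.08 for Ncan. It was below 1 for Mobp (0.881), Celf4 (0.867), Slc1a2 (0.782), Syt1 (0.597) and Hpca (0.559). In WT, then, no general excess of the 10 transcripts in the soleus was seen. For ∆Ig3-MuSK soleus over ∆Ig3-MuSK TA the ratios were all above 1, from 1.09 for Syt1 and 1.11 for Hpca to 2.70 for Gad1 and 8.53 for Gad2. The soleus levels of both genotypes had been used to choose the genes, so the ratios of either genotype are descriptions only.

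**Figure D4:**
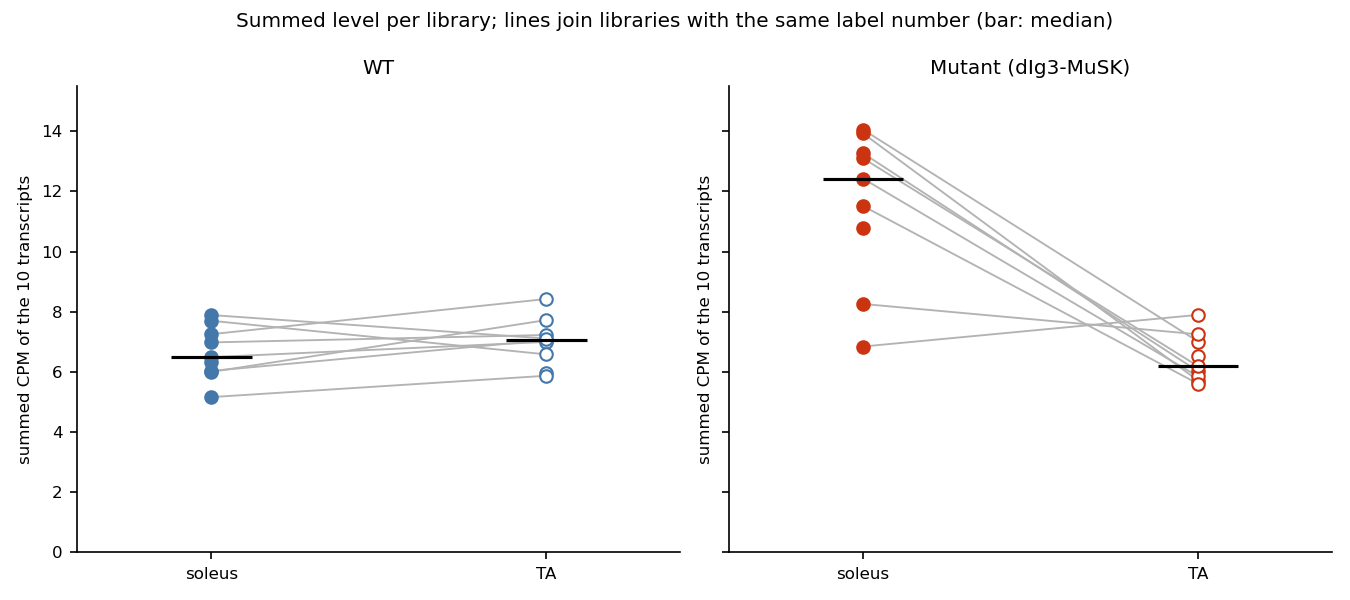
The y axis gives the summed CPM of the 10 transcripts per library (linear, from 0) and the x axis the muscle; the left panel holds WT and the right panel ∆Ig3-MuSK libraries. Gray lines join libraries with the same label number and bars are medians of 9; the mutant soleus points reach 14.1 CPM, while mutant TA points lie between 5.61 and 7.89.

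Among ∆Ig3-MuSK libraries, the label numbers with the highest sums in the soleus were not those with the highest sums in the TA. The summed level was 14.1 CPM in ∆Ig3-MuSK soleus replicate 2 and 7.01 CPM in the TA library of the same label number, 13.9 and 5.71 CPM for soleus replicate 1, and 13.3 and 6.02 CPM for soleus replicate 3. Soleus replicate 9, the lowest with 6.84 CPM, shared its number with the highest ∆Ig3-MuSK TA library (7.89 CPM), and soleus replicate 7 (8.26 CPM) with the next one (7.25 CPM). Over the 8 shared numbers of ∆Ig3-MuSK, r of the log2 CPM between the muscles had a median of -0.42 over the 10 genes and was above 0 for 1 of them. Over the 8 shared WT numbers the median was 0.31 and r was above 0 for 8 genes. With 8 numbers, and with the soleus values used to choose the genes, these are descriptions only.

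Other genes of the same cell types were taken from 28 marker lists that do not hold the 10 genes. In the soleus few of them passed the test. Of 78 genes in the 5 lists for neurons in general, excitatory neurons, inhibitory neurons, astrocytes and central oligodendrocytes, 55 were tested in the soleus. Their median log2 fold change was 0.34, against -0.002 over all genes tested, and 43 of the 55 were above 0. By edgeR's quasi-likelihood test 3 were called higher and 0 lower (0.365% of all genes were called higher). At an unadjusted p under 0.05, 28 had higher and 1 had lower levels, where 8.48% of all genes tested were higher and 10.1% lower. DESeq2 called 13 of the 55 higher and limma-voom 17, but both also called more genes over the whole table, 0.833% of all genes tested with DESeq2 and 1.35% with limma-voom. By edgeR, 0 to 10 were called with a single library left out, being 0 without WT replicate 4, 5, 6 or 8 or ∆Ig3-MuSK replicate 1 or 5. The number at an unadjusted p under 0.05 stayed between 24 and 31 over the same refits. Of the genes in these lists 55 were also tested in the TA, with 0 called by edgeR. There, an unadjusted p under 0.05 was reached by 5 with higher and 2 with lower levels, and the middle of the log2 fold changes (median) lay at -0.03.

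Of the 3 called genes, 2 are described here, both for synaptic proteins. Gria2, a subunit of the AMPA receptor for glutamate, was at 0.430 to 0.756 CPM in WT soleus (median 0.602) and 0.422 to 1.34 CPM in ∆Ig3-MuSK soleus (median 1.04), with a log2 fold change of 0.74 (SE 0.18, edgeR adjusted p = 0.0428). Camkv, a kinase-like protein of synapses, went from a median of 0.887 to 1.35 CPM (log2 fold change 0.65, SE 0.13, adjusted p = 0.0290). The call of Gria2 was lost in 13 of the 18 refits without a library, and that of Camkv in 6. In the list of general neuron genes, 12 of the 21 tested were higher at an unadjusted p under 0.05 and 0 were called. The 3 most abundant genes of that list did not share this direction: Uchl1, Thy1 and Dnm1 had log2 fold changes of -0.26 (SE 0.26), -0.33 (SE 0.18) and -0.21 (SE 0.17). Among the 10 astrocyte genes, an unadjusted p under 0.05 was reached by 4 with higher and 1 with lower levels, and of the central oligodendrocyte genes 3 of 5 were higher and 0 lower. Defining oligodendrocyte genes were close to 0 in both genotypes, with medians of 3 and 6 reads for Mog, 0 and 2 for Opalin and 0 and 1 for Olig2 in WT and ∆Ig3-MuSK soleus.

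Lists of brain regions gave different counts. Of the 8 striatum genes tested in the soleus, 3 were called higher, where 0.365% of all genes were called higher and 0.586% lower. At an unadjusted p under 0.05, 5 were higher and 1 was lower, where 8.48% and 10.1% of all genes were. Log2 fold changes were above 0 for 6 of the 8. The summed list overlapped between WT soleus (13.2 to 19.9 CPM) and ∆Ig3-MuSK soleus (16.0 to 20.5 CPM). Ppp1r1b (DARPP-32, a phosphatase inhibitor of striatal neurons) was at 0.989 to 1.57 CPM in WT soleus (median 1.31) and 1.24 to 2.86 CPM in ∆Ig3-MuSK soleus (median 2.43), a log2 fold change of 0.80 (SE 0.14, edgeR adjusted p = 0.0164). It was at most 0.199 CPM in any TA library and was not tested there. Rgs9, a regulator of G proteins in striatum and retina, had a log2 fold change of 0.94 (SE 0.22, edgeR adjusted p = 0.0424). With 1 library left out, 2 or 3 genes of the list were called. The call of Rgs9 was lost in 13 of the 18 refits, and that of Ppp1r1b in 0. Of the cerebellum genes, 3 were tested and 0 of them were above 0. In the list of forebrain identity factors 3 were tested and 0 called, and in that of hypothalamus and pituitary 2 were tested and 0 called, with Prl and Cga at 0 in all soleus libraries. Among motor neuron genes only Prph reached the filter and was not called; Chat and Slc18a3, which make and load acetylcholine, had a median of 1 read or less in both genotypes, and Lhx3 was at 0. The sensory neuron list had 0 called of 3 tested and the retina list 0 of 1.

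Peripheral glia were represented by Schwann cell and shared myelin genes. Of 14 Schwann cell genes tested in the soleus, 0 were called in either direction, and their median log2 fold change was 0.06. An unadjusted p under 0.05 was reached by 0 of them with higher and by 1 with lower levels. DESeq2 and limma-voom called 0 of the Schwann cell genes higher and 1 lower, where they called 1.67% and 2.01% of all genes lower. The summed Schwann cell list was at 69.2 to 96.8 CPM in WT soleus and 68.9 to 122.5 CPM in ∆Ig3-MuSK soleus. Of 8 myelin genes shared by central and peripheral glia all had log2 fold changes above 0 (median 0.23), with 0 called and 1 higher at an unadjusted p under 0.05. Of 6 microglia genes tested, 0 had a log2 fold change above 0 (median -0.42), with 0 called and 1 lower at an unadjusted p under 0.05.

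**Figure D5:**
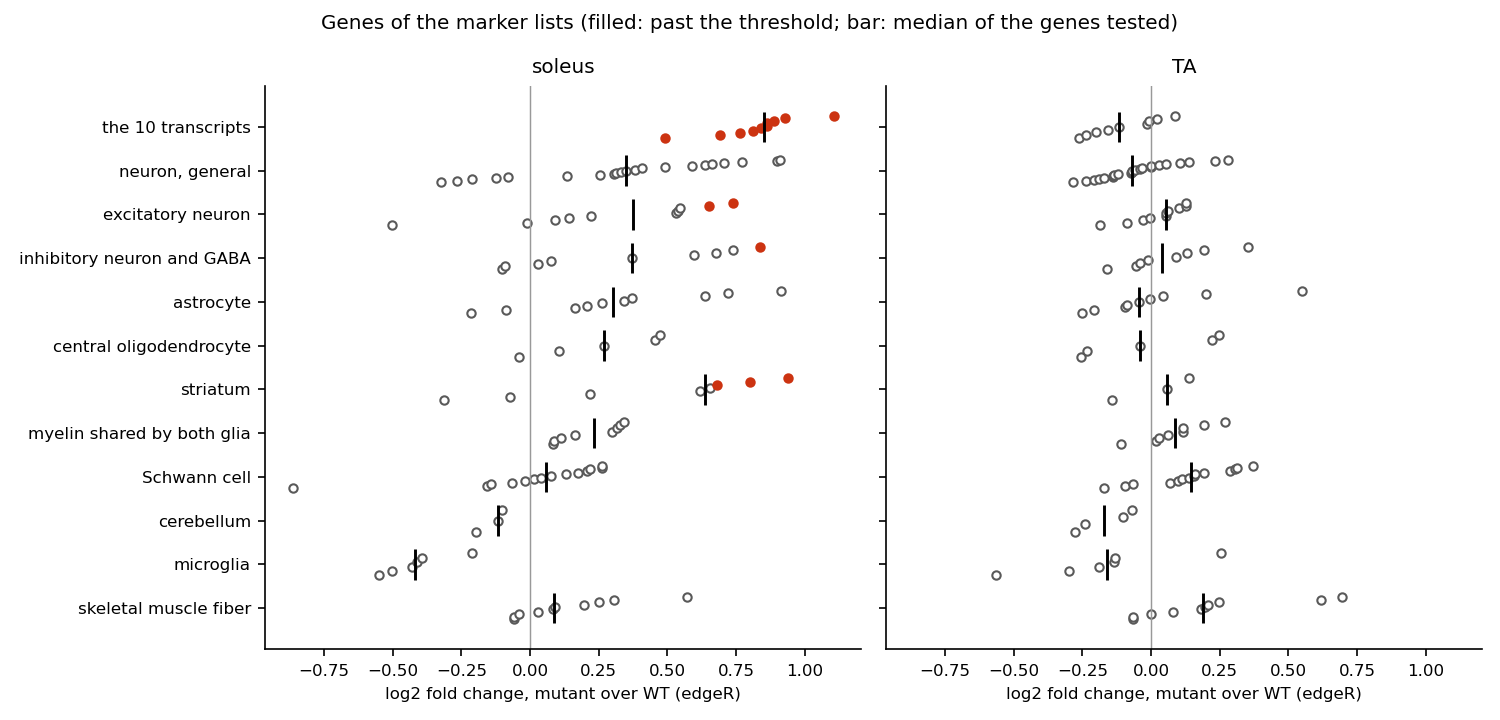
The left panel shows the soleus and the right panel the TA; each point is a gene that passed the filter, its log2 fold change (∆Ig3-MuSK over WT) is on the x axis, marker lists are on the y axis, filled points passed the threshold and bars are medians. In the soleus the medians of the 5 central lists lie between 0.27 and 0.38 and that of the striatum list at 0.64, beside 0.06 for Schwann cells; in the TA they lie near 0.

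The lists for other tissues gave few calls. In the soleus 0 genes were called from the lists of choroid plexus and ependyma, liver, kidney, testis, pancreas, lung, atrial heart, skin, red blood cells, adipocytes and skeletal muscle fibers. The immediate early list had fold changes above 0 for 0 of 9 genes, with a median log2 fold change of -0.57. At an unadjusted p under 0.05, 5 were lower and 0 higher, where 10.1% of all genes tested were lower and 8.48% higher. The summed list overlapped between WT (100.3 to 240.8 CPM) and ∆Ig3-MuSK soleus (83.8 to 194.6 CPM). From this list 1 gene was called, Egr3, which was lower (log2 fold change -1.56, SE 0.38, edgeR adjusted p = 0.0459). This call was lost in 14 of the 18 refits without a library, being kept without WT replicate 1, 2 or 7 or ∆Ig3-MuSK replicate 7, and its log2 fold change ranged from -1.68 to -1.31. The adipocyte list had fold changes above 0 for 5 of 5 genes, with a median log2 fold change of 0.57, among them Adipoq (0.57, SE 0.42), Plin1 (0.25, SE 0.40) and Cidec (0.67, SE 0.38). Its summed level overlapped between WT (16.9 to 109.3 CPM) and ∆Ig3-MuSK soleus (7.58 to 101.0 CPM). Within genotypes its genes had a median r of -0.0009 with the mean z score of the 10 transcripts, and the part of adipocyte RNA in their difference was not tested. The red blood cell genes (median log2 fold change 0.29) were also above 0 in 5 of 5 cases, and the liver genes (median 0.07) in 4 of 5, with Cyp2e1, which adipose tissue also expresses, at 0.87 (SE 0.32, edgeR adjusted p = 0.148). Of 27 relatives of the 10 genes by family (other synaptotagmins, glutamate transporters and the like), 0 were called, with a median log2 fold change of 0.03. In the TA, 0 genes of any of the lists were called.

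The genes most like the 10 in their pattern over libraries were ranked by Pearson's r with the mean z score of the 10, after centering each genotype, over the 18 soleus libraries. The highest was that of Snap25, a protein of the machinery that fuses synaptic vesicles (r = 0.90), followed by Rasgrf1 (0.87), Rab3c (0.84), Tubb3 (0.82), Kcnd2 (0.82), Stx18 (0.81), Gria2 (0.80) and Nefm (0.78), which are 8 of the 10 genes with the highest r. Of these, Rab3c belongs to synaptic vesicles, Kcnd2 is an ion channel of neurons, and Tubb3 and Nefm are parts of the neuronal cytoskeleton. Of the 50 first genes, 12 were in the marker lists, which cover brain and other tissues. The lists hold 260 genes, not all of them tested, and 19429 genes were ranked in the soleus. The genotype differences of the genes named here were not all alike. Rab3c had a log2 fold change of 0.98 (SE 0.25), Nefm 0.71 (SE 0.25), Snap25 0.59 (SE 0.17) and Rasgrf1 0.59 (SE 0.21), while the values were 0.24 (SE 0.21) for Kcnd2, -0.04 (SE 0.05) for Stx18 and -0.08 (SE 0.20) for Tubb3. Only Gria2 was called among the 10. The summed level of the 10 transcripts was lowest in ∆Ig3-MuSK soleus replicates 9 (6.84 CPM) and 7 (8.26 CPM) of that group. The part of these libraries in the ranking was not tested. In the TA the highest r was lower, 0.80, and 2 of the first 50 genes, of 20066 ranked, were in the marker lists.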

How the data were processed

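RNA was taken from whole soleus and TA muscles of WT and ∆Ig3-MuSK mice, 9 libraries per group and 36 in all, with a kit that keeps no strand information. The submitters' processing notes name Trimmomatic, FastQC, GSNAP, SAMtools and HTSeq with GRCm38; versions and the annotation release are not given in the sources used here. The authors deposited whole-number read counts per Ensembl gene ID, without normalization, in a table for each muscle, and 0 columns of other samples were present. Reads that fit several genes, or exons shared by overlapping genes, depend on the authors' counting and can be lost or shared. Symbols were found for 51633 of 51912 IDs, and coordinates are those of GENCODE M21 on GRCm38. Groups and replicate numbers came from the labels. Nothing in the labels ties a library to an animal beyond a label number, so the p-values measure the spread between these samples.

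The members and the marker lists were chosen with earlier results of these data known. The filter filterByExpr (count of 10, total of 15) was applied to each muscle, followed by TMM scaling and the quasi-likelihood test of edgeR 4.0.16 in R 4.3.3 between genotypes. A call needed an adjusted p (Benjamini-Hochberg) under 0.05 and a change of at least 1.2-fold. Log2 CPM used a prior count of 2. Depth ranged from 43492062 to 78660422 counts per library. The text names the 10 members, Musk, per list the called genes or up to 3 abundant genes, and the 10 genes most like the members; defining markers near 0, and genes at the limit for a call, were picked with their values known. The joined motif was added after the windows were read. Some genes that this rule names are not reported here.

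Each fit was repeated with DESeq2 1.42.0, limma-voom (limma 3.58.1) with quality weights, robust fits, RLE factors, total counts, no filter, a floor of 10 counts per library, no minimum for the fold, a single fit over 36 libraries, only label numbers present in both muscles, the replicate number as a block, and each library left out. On counts simulated from the soleus libraries, with a log2 change of 1 given to 200 of 19318 genes, the test recovered 87.5%, and for the TA, among 19896 genes, 93.5%.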

Additional observations from a re-analysis of the deposited data

Results flagged for a closer look

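Values of 1 library that stood far from the other 8 of its group were looked for with Dixon's ratio at its 95% critical value in 156 sets of values, 40 of them for single members, and 20 were found. Chance alone flags about 1 in 20 such sets if the values are normally distributed and the sets independent. The sets share libraries and the distribution was not checked, so nothing is read from the number found. Of the members, Gad2 in ∆Ig3-MuSK soleus replicate 9 was low (0.422 CPM, others 0.883 to 1.26), Gad1 in ∆Ig3-MuSK TA replicate 6 was high (0.459 CPM, others at most 0.292) and Hpca in ∆Ig3-MuSK TA replicate 9 was high (1.65 CPM, others at most 1.3).

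The other 17 were summed CPM of marker lists, all on the high side. In the soleus they were the lung list in WT replicate 3 (26.6 CPM), the adipocyte list in WT replicate 1 (109.3 CPM), and in ∆Ig3-MuSK the excitatory neuron list in replicate 8 (102.7 CPM, of which 96.4 CPM was Camk2a, which muscle also expresses), the kidney list in replicate 7 (0.745 CPM), the pancreas list in replicate 2 (0.0545 CPM) and the red blood cell list in replicate 9 (2426 CPM, others at most 1329 CPM). In WT TA they were the central oligodendrocyte list in replicate 5 (25.5 CPM, led by Nkx6-2), the Schwann cell list in replicate 9 (85.1 CPM), the choroid plexus and ependyma list in replicate 9 (2.17 CPM), the liver list in replicate 9 (8.22 CPM), the cerebellum list in replicate 2 (11.5 CPM), the skin list in replicate 1 (65.0 CPM) and the family relatives of the members in replicate 3 (2787 CPM, led by Des). In ∆Ig3-MuSK TA they were the excitatory neuron list in replicate 1 (489.3 CPM), the forebrain identity list in replicate 9 (1.32 CPM), the pancreas list in replicate 6 (0.0889 CPM) and the adipocyte list in replicate 4 (23.5 CPM). WT TA replicate 9, which held 3 of these, also had the highest summed level of the 10 members among WT TA libraries (8.42 CPM); the relation was not tested.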

How the results depend on the processing

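Of the 10 members, 7 to 10 were called higher in the soleus under the alternatives that kept all libraries, and 2 to 10 with a library left out. None was called in the TA under any of these settings. The soleus contrast had been used to choose the members, so nothing is read from their soleus counts. Of the 5 central lists in the soleus, 13 genes were called higher with DESeq2, 17 with limma-voom, 13 with a single fit over 36 libraries, 1 with total counts and 0 to 10 with a library left out, against 3; at an unadjusted p under 0.05 18 were higher with at least 10 counts in every library, against 28. Schwann cell genes called lower numbered 1 with DESeq2, limma-voom, total counts or only shared label numbers, and 0 to 1 with a library left out, against 0. A single fit over 36 libraries called 1 central gene higher in the TA and left 3 higher at an unadjusted p under 0.05. In the TA, the log2 fold change of Gfap turned to 0.064 with limma-voom, 0.036 with total counts and 0.0020 with the replicate block, that of Syt1 to 0.090 with limma-voom and 0.030 with total counts, and that of Ncan to -0.024 with only shared label numbers; with a library left out they ranged from -0.0565 to 0.0556, -0.083 to 0.0354 and -0.0968 to 0.187. With Spearman's rho, 6 of the 10 genes most like the members in the soleus and 4 of 10 in the TA were still among the first 10. The cause of these changes was not tested. Over all genes in the soleus, 71 were called higher and 114 lower, against 162 and 324 with DESeq2 and 263 and 390 with limma-voom, 48 and 269 with total counts, 95 and 211 with only shared label numbers, 91 and 256 with the replicate block and 119 and 193 with a single fit. In the TA, 3 higher and 0 lower became 164 and 61 with DESeq2, 120 and 30 with limma-voom, 8 and 2 with no filter, 1 and 0 with only shared label numbers and 485 and 207 with a single fit, while the replicate block gave 0 of either.

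Replicate numbers did not pair the genotypes: deviations of same-numbered libraries correlated with a median r of 0.007 in the soleus and 3 of 9 pairs were above 0.1. With the number as a replicate block, 7 of the 10 members were called higher in the soleus, beside 91 of 19439 genes tested. The soleus contrast had been used to choose the members, so nothing is read from this count. In the TA the same fit called 0 of 20075 genes higher and 0 lower, so it could not single out the members. Depth limits Gad1, Gad2 and Mobp in WT soleus, Gad1 and Gad2 in the TA, and Ncan, each with a median of about 20 reads or fewer per library.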
